A study of Drosophila melanogaster with 4 samples.

Results

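The Y chromosome genes of Drosophila melanogaster were followed in testes of adult flies mutant for Su(var)3-9 and of wild-type flies. Members were all gene names whose listed locus lies on chromosome Y of the dm6 assembly and whose value was above 0 in at least 1 library. This gave 31 of 16510 names, and 20 further Y names were listed at 0 in every library. Polyadenylated RNA was measured in 4 libraries, 2 from males labelled with the Su(var)3-9 genotype, with an allele not given in the sources used here, and 2 from males labelled wild type. Libraries of the Su(var)3-9 genotype are called mutant-labelled here. The sample labels do not say which Y chromosome the flies of either group carried, so its origin and the genotype label cannot be told apart. All flies were 3 days old and were kept at 23 °C, and 50 testes went into each library. The series describes the replicates as biological. Su(var)3-9 is a methyltransferase of histone H3 lysine 9, the mark of heterochromatin. Values are FPKM, in which the authors divided fragments by the length of the transcript and by the size of the library.

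The Y chromosome of the fly is almost wholly heterochromatic and is needed for male fertility but not for male sex. Its classical fertility factors, named kl on the long arm and ks on the short arm, are transcribed in primary spermatocytes and act in the making of motile sperm. Several of them have introns filled with satellite repeats, and their transcription unfolds large lampbrush-like loops in the spermatocyte nucleus. The Y also carries further testis genes copied from autosomes and the Su(Ste) repeats, whose small RNAs silence the X-linked Stellate genes.

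The annotation behind the files splits several Y genes. The 19 names that are not repeats or pseudogenes matched 12 protein-coding genes of the current Ensembl annotation, and 5 of these genes were spread over 12 names. The dynein gene kl-3 (Y, 336381 to 563165, dm6, plus strand) has 16 exons. The name kl-3 covers exons 9 to 15, CG40936 covers exons 4 to 5 and CG40992 lies in exon 1. WDY (2273422 to 2487777, plus strand), a WD-repeat gene assigned to the fertility factor kl-1, has 6 exons, with CG40583 in exon 2 and CG40551 in exons 3 to 4. The names CG40245 and CG41020, which also match WDY and have 2 rows each on Y, were listed at 0 in all 4 libraries. PRY (146092 to 192020, minus strand) has 3 exons, and CG41367, CG42619 and CG40930 fall on exons 1, 2 and 3 in the direction of transcription. CCY (3649996 to 3666928, plus strand), the coiled-coil gene assigned to ks-2, has 6 exons, with CG42620 in exon 2 and CG40948 in exon 3. CG41497 lies in exon 16 of the 17 exons of kl-5 (22250 to 137486, minus strand). The listed locus of the name kl-2 (596995 to 664173) covers exons 2 to 12 of its 12 exons. That of Ory (3564613 to 3618339) covers exons 3 to 8 of its 8 exons. The longest intron of the reference gene exceeded 10000 bases in 8 of the 12 genes. It reached 150611 bases in Ppr-Y, 137947 in WDY and 120259 in kl-3. Pp1-Y1 and Pp1-Y2 have no intron.

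The libraries differed in depth with genotype. The widths of the deposited intervals correspond to an estimated total of 1446647 and 1468278 fragments in the mutant-labelled libraries, against 3207719 and 3366747 in wild-type testes, so depth and genotype cannot be told apart. Su(var)3-9 itself was at 0 and 7.83 FPKM in the mutant-labelled libraries, against 7.93 and 9.74 FPKM in wild-type testes. Its level thus did not set mutant replicate 2 apart from wild type. The allele is not given, so what this level says about the label is not known. Of 11 spermatocyte markers 10 were tested, of which bol fell and 9 did not pass, beside 8.67% called lower among all genes tested. All 11 summed to 1001 and 912 FPKM in the mutant-labelled libraries, against 1050 and 1054 FPKM in wild-type testes, with tomb at 0 in every library. Without bol the sums were 427 and 350 FPKM, against 353 and 340 FPKM in wild-type testes, and the groups overlapped. The 7 cyst and hub cell markers summed to 82.8 and 75.8 FPKM, against 73.4 and 69.4 FPKM in wild-type testes. Of 6 tested hh rose (limma adjusted p = 0.0462), a call that ended when any 1 library was left out and in 5 other fits, among them a pseudocount of 5 (0.0580) and the replicate block (0.0535). The 7 spermatid markers summed to 24666 and 23722 FPKM, against 16238 and 15035 FPKM in wild-type testes. Of these sums Mst87F supplied 12608 and 11433 FPKM, against 7070 and 6218 FPKM in wild-type testes. Mst87F, ocn, janB and Mst77F rose, beside 11.4% called higher among all genes tested. The markers dj, ProtA and ProtB did not pass, with log2 fold changes of -0.14, 0.16 and 0.12. Under quantile normalization ocn alone kept its call, at a log2 fold change of 0.30, and Mst87F was at 0.10 (limma adjusted p = 0.264), against 0.86 as deposited. With the reference length trend removed janB (limma adjusted p = 0.119) and Mst77F (limma adjusted p = 0.131) did not pass. Of 16 accessory gland and duct markers 13 were tested, and PebIII rose, at 283 and 242 FPKM in the mutant-labelled libraries, against 124 and 74.4 FPKM in wild-type testes (limma adjusted p = 0.0363, or 0.0502 with the reference length trend removed). The other 15 summed to 11.1 and 50.3 FPKM in the mutant-labelled libraries, against 2887 FPKM in wild type replicate 1 and 9.97 FPKM in wild type replicate 2. Of the 16 markers 12 and 8 were at 0 in the mutant-labelled libraries, against 2 and 9 in wild-type testes. The part of these differences in the Y gene results was not tested. In whole testes, fewer cells of a type and less RNA per cell cannot be told apart.

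Y genes made up a smaller share of the mutant-labelled libraries. Of every 1000000 estimated fragments they gave 308 and 323 there, against 532 and 575 in wild-type testes. The names kl-5, kl-2 and kl-3 together supplied 116 and 125 of these in the mutant-labelled libraries, against 310 and 351 in wild-type testes. The other 28 names supplied 192 and 198, against 222 and 224 in wild-type testes. These 3 names carried 37.7% and 38.6% of all Y fragments in the mutant-labelled libraries, against 58.3% and 61.0% in wild-type testes. With the short dynein names CG41497, CG40936 and CG40992 added, the share was 39.2% and 39.7%, against 59.5% and 62.6% in wild-type testes. No test was run on these sums.

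**Figure D1:**
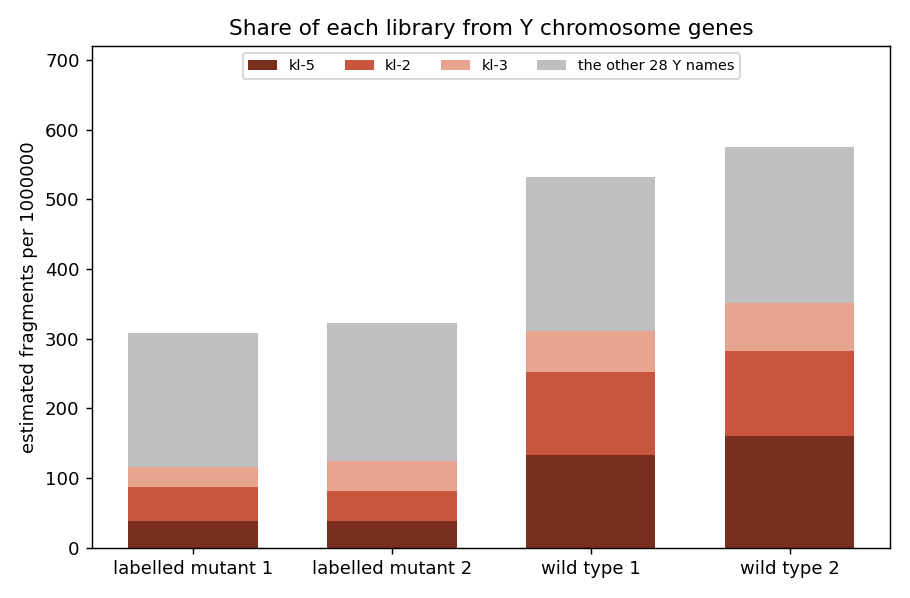
Estimated fragments per 1000000 in each library (bars, stacked), for kl-5, kl-2, kl-3 and the other 28 Y names. The part from kl-5, kl-2 and kl-3 is 116 and 125 in the mutant-labelled libraries and 310 and 351 in the wild-type libraries, while the grey part, which holds the 3 short dynein names, lies between 192 and 224 in all 4.

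Testing used limma on log2(FPKM + 1) over all genes averaging 1 FPKM or more, Benjamini-Hochberg adjusted p-values and a threshold of 0.05. Of the 31 Y names 18 passed this filter, among them Pp1-Y1, which passed through the mutant-labelled libraries. The members above 0 numbered 21 and 20 in the mutant-labelled libraries, against 29 and 25 in wild-type testes. These counts are not corrected for the greater depth of the wild-type libraries and are not read as lost expression. The names kl-5, kl-2, CG42619 and CG40948 fell and Pp1-Y1 rose. These 5 of 18 stand beside 20.1% called among all 10784 genes tested, the 4 lower ones beside 8.67% and the 1 higher one beside 11.4%. Groups did not overlap for 11 of the 18 names, beside 65% of all genes tested. Both mutant-labelled libraries lay below both wild-type libraries for 10 of the 18 names and above them for 1, beside 32.7% and 32.2% of all genes tested. The median log2 fold change was -0.32 over the 18 names and -0.0075 over all genes tested. No Y name passed the threshold once any 1 library was left out, in fits that called no gene at all without a mutant-labelled library and 182 or 262 genes without a wild-type library. Without mutant replicate 2, where Su(var)3-9 was near its wild-type level, the log2 fold change was -1.71 for kl-5, -1.16 for kl-2, -1.08 for CG40948, -1.64 for CG42619 and 3.61 for Pp1-Y1. Without wild type replicate 1, which stood apart in accessory gland markers, it was -1.82 for kl-5, -1.19 for kl-2, -1.01 for CG40948, -1.37 for CG42619 and 3.95 for Pp1-Y1 (limma adjusted p = 0.114 to 0.226).

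The axonemal dynein heavy chains are the motors that slide the microtubules of the sperm tail, and the Y carries genes for outer arm chains (kl-3, kl-5) and an inner arm chain (kl-2). kl-5 was at 4.93 and 5.07 FPKM in the mutant-labelled libraries, against 16.7 and 20.2 FPKM in the wild-type libraries. The groups did not overlap, nor did the 95% intervals of the files, which reached up to 6.25 and 6.42 FPKM in the mutant-labelled libraries and down to 15.1 and 18.5 FPKM in wild-type testes. Its log2 fold change was -1.69 (SE 0.16, limma adjusted p = 0.0112), on 56.0 estimated fragments in each mutant-labelled library and on 428 and 540 in the wild-type libraries. It averaged 5.0 ± 0.0945 FPKM in the mutant-labelled libraries and 18.5 ± 2.50 FPKM in wild-type testes (SD, n = 2 each). kl-2 (573088 to 664173, plus strand) was at 4.28 and 4.14 FPKM in the mutant-labelled libraries, against 10.8 and 10.9 FPKM in wild-type testes. The spread within either genotype was small beside the gap, and the log2 fold change was -1.18 (SE 0.15, limma adjusted p = 0.0176). kl-3 was at 3.71 and 5.78 FPKM in the mutant-labelled libraries, against 7.51 and 8.90 FPKM in wild-type testes. These groups did not overlap either, but the difference did not pass the test (log2 fold change -0.70, SE 0.25, limma adjusted p = 0.133), and without mutant replicate 1 it was -0.44.

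The proportions between the dynein genes differed with the genotype label. kl-5 alone gave 38.7 and 38.1 of every 1000000 fragments in the mutant-labelled libraries, against 134 and 160 in wild-type testes. kl-2 gave 48.1 and 43.9 on the same scale, against 119 and 122, and kl-3 29.3 and 42.7, against 57.9 and 68.5. In fragments, kl-2 therefore stood above kl-5 in both mutant-labelled libraries and below it in both wild-type libraries. The level of kl-5 was 1.15 and 1.22 times that of kl-2 in the mutant-labelled libraries, against 1.55 and 1.87 times in the wild-type libraries. It was 1.33 and 0.876 times that of kl-3, against 2.23 and 2.28 times. In both ratios the mutant-labelled libraries were below the wild-type libraries. With 2 libraries against 2, an exact permutation test cannot go below p = 0.33 (two-sided), so no test of a single ratio was run. The short names inside these genes rested on few fragments. CG41497, in exon 16 of kl-5, had 20.2 and 9.67 FPKM in the mutant-labelled libraries, against 15 FPKM in both wild-type libraries, on 6.0 and 3.0 fragments against 14 and 14.7. Its groups overlapped (log2 fold change -0.09, SE 0.36, limma adjusted p = 0.887), unlike those of the name kl-5. The files do not give exons, and how fragments of that stretch were divided between both names is not known. CG40936, in exons 4 to 5 of kl-3, was listed at 0 and at 3.98 FPKM in the mutant-labelled libraries, against 4.82 and 9.10 FPKM in wild-type testes, on at most 12 fragments (log2 fold change -1.78, SE 0.88, limma adjusted p = 0.229). CG40992, in exon 1 of kl-3, stayed under the filter with at most 3.0 fragments per library.

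**Figure D2:**
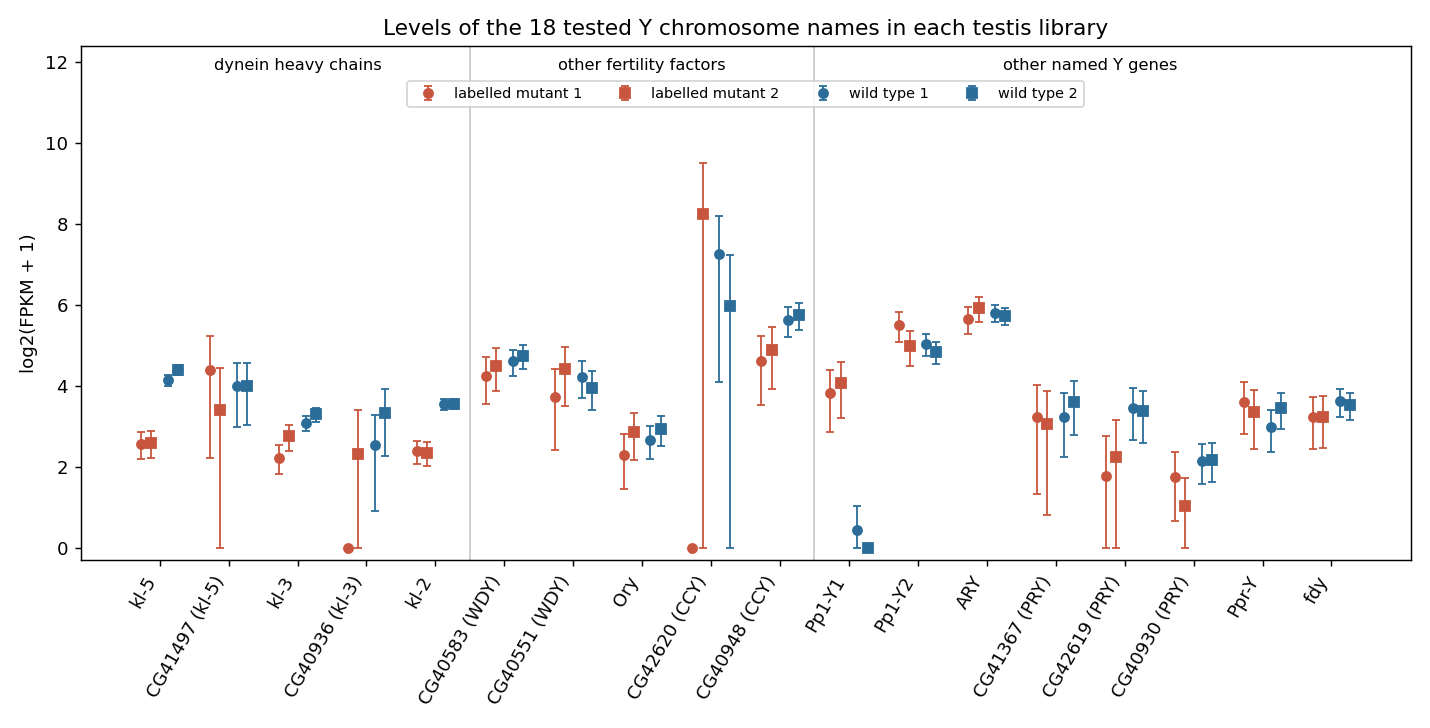
Level of each of the 18 tested Y names as log2(FPKM + 1) in the 4 libraries (points), with the 95% interval of the deposited files (bars) and the current gene in brackets where the name differs. kl-5 and kl-2 are lower in both mutant-labelled libraries without overlap of the bars, Pp1-Y1 is near 0 in wild-type testes, and ARY, Pp1-Y2 and Ppr-Y overlap between genotypes.

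Transcript length moved with the differences over the whole tables, and the Y dyneins are among the longest transcripts of the fly. The reference transcripts of kl-2, kl-5 and kl-3 have 13386, 13680 and 13882 bases. Of 142 tested genes off the Y with a longest reference transcript of at least 10000 bases, 45 fell and 2 rose, with a median log2 fold change of -0.65. The median was 0.23 in genes under 1000 bases. With the trend on reference length removed from each library, kl-5 stayed lower by the test (log2 fold change -1.01, limma adjusted p = 0.0271). kl-2 was then at -0.50 (limma adjusted p = 0.126) and kl-3 at -0.0080 (limma adjusted p = 0.986). With lengths estimated from the files instead, the values were -1.22 (limma adjusted p = 0.0217), -0.59 (0.0900) and -0.23 (0.565) for kl-5, kl-2 and kl-3. The estimated length of the kl-5 model was 6939 bases, shorter than its reference transcript.

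The axonemal dynein heavy chains encoded off the Y were set beside them. Of 7 such genes 6 were tested, 4 fell and none rose, beside 8.67% called lower among all genes tested. The share called lower was 31.7% among tested genes off the Y with a longest reference transcript of at least 10000 bases. Dhc98D had 15.3 and 17.5 FPKM in the mutant-labelled libraries, against 34.8 and 41.2 FPKM in wild-type testes (log2 fold change -1.16, SE 0.14, limma adjusted p = 0.0164). Dhc36C had 32.3 and 34.0 FPKM, against 54.96 and 58.71 FPKM in wild-type testes (log2 fold change -0.76, SE 0.09, limma adjusted p = 0.0163). Dhc16F and Dhc62B fell with log2 fold changes of -0.76 and -0.60 (limma adjusted p = 0.0350 for each). With the reference length trend removed none of the 4 passed. Dhc98D was then at -0.43 and Dhc62B turned to 0.041. The log2 fold change of kl-5 was below that of each of these 4 genes both before and after that step, a difference between genes that was not tested.

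**Figure D3:**
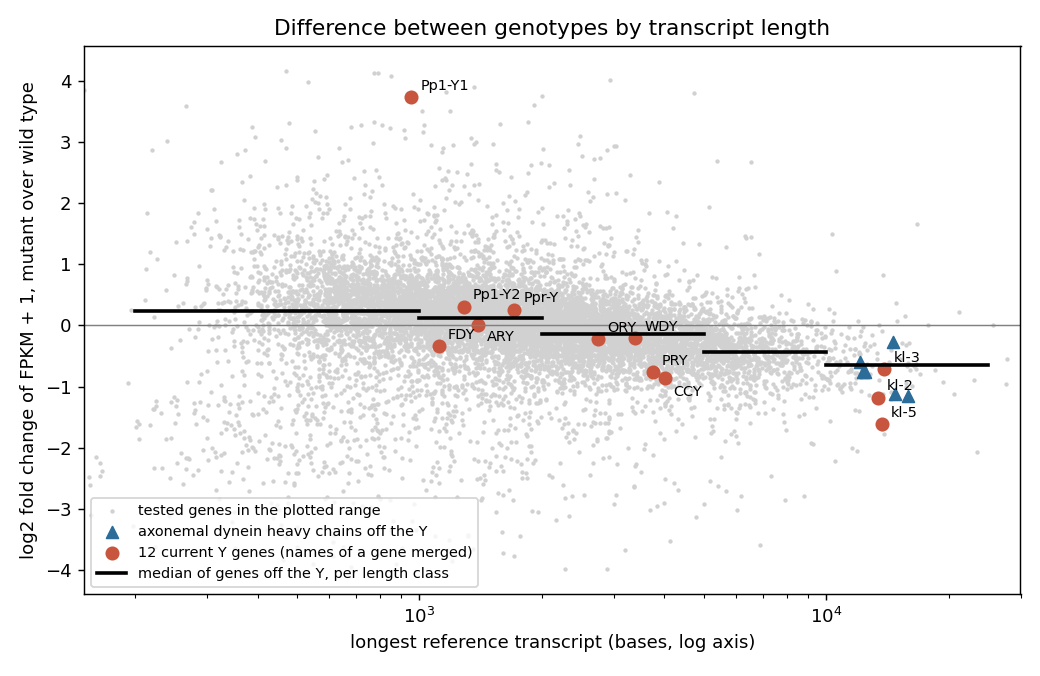
Log2 fold change, mutant over wild type, against the longest reference transcript in bases (log axis) for tested genes within the plotted range (grey), the 6 tested axonemal dynein heavy chains off the Y (triangles) and 12 current Y genes (circles), with the median of genes off the Y in 5 length classes (lines). kl-3, kl-2 and kl-5 lie below the median of -0.65 of the longest class, and Pp1-Y1 stands apart at 3.73.

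Of the 5 tested names of other fertility factors, which match WDY, ORY and CCY, 1 fell, beside 8.67% called lower among all genes tested. The name that fell was CG40948, of the coiled-coil gene. CG40948, in exon 3 of CCY, had 23.6 and 28.6 FPKM in the mutant-labelled libraries, against 48.7 and 53.2 FPKM in wild-type testes. It fell without overlap of the groups (log2 fold change -0.94, SE 0.14, limma adjusted p = 0.0213), on 13.0 and 16.0 fragments against 61.1 and 73.1. The intervals of the files did overlap. They reached up to 36.7 and 42.9 FPKM in the mutant-labelled libraries and down to 36.2 and 40.8 FPKM in wild-type testes. CG40948 stayed past the threshold with the reference length trend removed (-0.68, limma adjusted p = 0.0480). CG42620, in exon 2 of the same gene, was listed at 0 and 301 FPKM in the mutant-labelled libraries, against 154 and 62.5 FPKM in wild-type testes. Its locus has 156 bases, its estimated length came to 7 bases, and at most 5.0 fragments per library lay behind these values, so its level and its log2 fold change of -2.51 (SE 2.90) cannot be read. With both names merged by length, CCY was at -0.87 (SE 0.21, limma adjusted p = 0.0600) and did not pass.

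WDY and ORY did not pass. CG40583 of WDY had 18.1 and 21.6 FPKM in the mutant-labelled libraries, against 23.5 and 25.7 FPKM in wild-type testes (log2 fold change -0.30, SE 0.14, limma adjusted p = 0.207). CG40551, the next piece of WDY, had 12.3 and 20.4 FPKM, against 17.9 and 14.6 FPKM in wild-type testes, where the groups overlapped (log2 fold change -0.022, limma adjusted p = 0.963). Ory (now ORY, assigned to ks-1, 3561745 to 3618339, plus strand) had 3.90 and 6.33 FPKM in the mutant-labelled libraries, against 5.38 and 6.68 FPKM in wild-type testes (log2 fold change -0.22, SE 0.28, limma adjusted p = 0.600). WDY and ORY have longest introns of 137947 and 48321 bases, on either side of the 53833 bases of kl-5. Their transcripts have 3394 and 2745 bases, against 13680 bases in kl-5. The part of intron or transcript length in the difference between these genes was not tested.

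**Figure D4:**
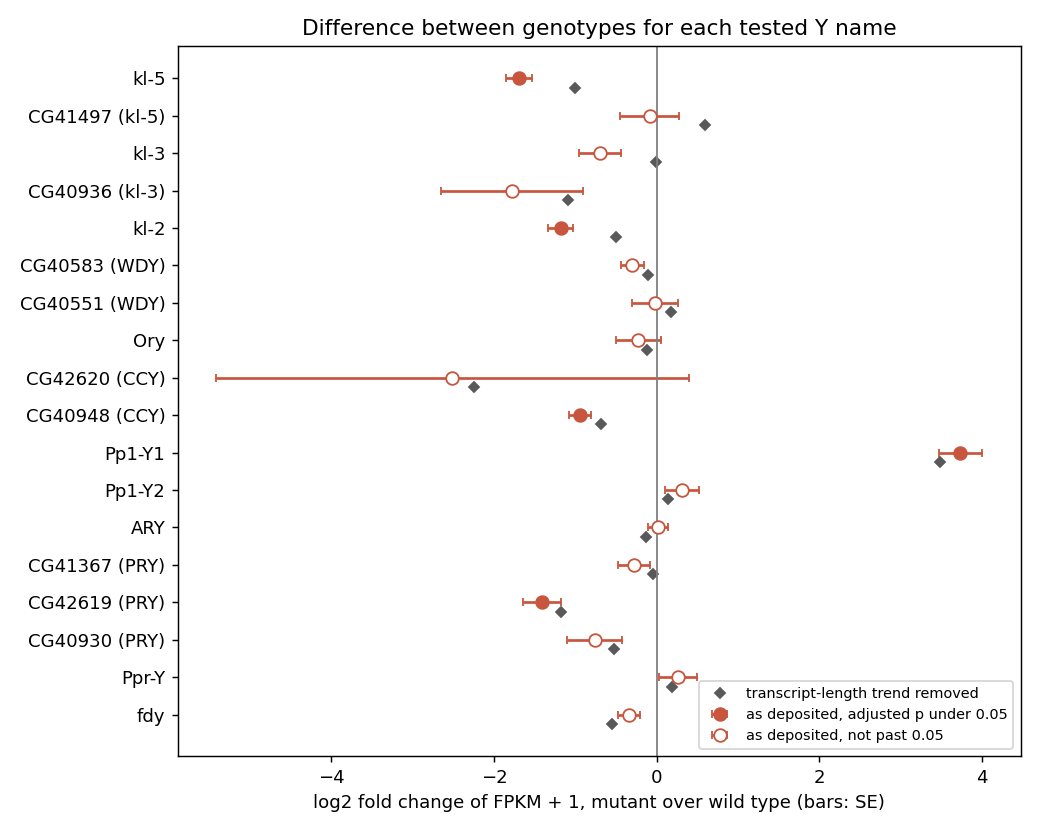
Log2 fold change, mutant over wild type, of the 18 tested Y names with its standard error (circles and bars, filled where the limma adjusted p was under 0.05) and the value with the reference length trend removed (diamonds). The filled names are kl-5, kl-2, CG40948, CG42619 and Pp1-Y1, and of these kl-2 and CG42619 did not pass with the reference length trend removed. With the estimated length trend removed, not drawn here, CG42619 did pass (limma adjusted p = 0.0313).

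Pp1-Y1 went opposite to the dyneins. It and Pp1-Y2 encode catalytic subunits of type 1 protein phosphatase. Pp1-Y1 (9833 to 10786, plus strand) had 13.3 and 15.8 FPKM in the mutant-labelled libraries, against 0.359 and 0 FPKM in the wild-type libraries. It rose (log2 fold change 3.73, SE 0.27, limma adjusted p = 0.00845), on an estimated 14.7 and 18 fragments in the mutant-labelled libraries and 1.0 and 0 in the deeper wild-type libraries. Pp1-Y1 entered the test through the mutant-labelled libraries alone, since its wild-type values lay below the filter of 1 FPKM. The upper bound of its interval was 1.08 FPKM in wild type replicate 1, below the lower bounds of 6.35 and 8.36 FPKM in the mutant-labelled libraries. The size on this scale depended on the pseudocount and was 1.91 with a pseudocount of 5 and 5.24 with 0.25. The difference also passed with the reference length trend removed (3.48, limma adjusted p = 0.0112). The level of Pp1-Y1 was 0.298 and 0.513 times that of Pp1-Y2 in the mutant-labelled libraries, against 0.0113 and 0 times in wild-type testes. Pp1-Y2 (3539437 to 3540722, minus strand) had 44.6 and 30.8 FPKM in the mutant-labelled libraries, against 31.8 and 27.9 FPKM in wild-type testes. Its groups overlapped (log2 fold change 0.31, SE 0.21, limma adjusted p = 0.366). Of 7 phosphatase 1 genes off the Y none rose and none fell by limma, with 1 at an unadjusted p under 0.05. Pp1-87B, the main such gene of the fly, had 39.0 and 30.2 FPKM in the mutant-labelled libraries, against 42.3 and 38.8 FPKM in wild-type testes (log2 fold change -0.23, limma adjusted p = 0.361). Fragments shared by near-identical copies could be split between paralogs, and how such fragments were counted is unknown here. Whether the Y chromosomes of both groups differ in sequence at this gene was not tested.

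PRY, related to polycystins, showed a different value in each of its pieces. CG41367, in exon 1, had 8.43 and 7.31 FPKM in the mutant-labelled libraries, against 8.50 and 11.2 FPKM in wild-type testes (log2 fold change -0.28, SE 0.20, limma adjusted p = 0.374). CG42619, in exon 2, had 2.42 and 3.72 FPKM, against 9.96 and 9.40 FPKM in wild-type testes. It fell without overlap of the groups (log2 fold change -1.41, SE 0.23, limma adjusted p = 0.0277). It rested on only 2.0 and 3.0 fragments in the mutant-labelled libraries and 18.9 in each wild-type library. The intervals of the files did overlap. They reached up to 5.86 and 8.03 FPKM in the mutant-labelled libraries and down to 5.38 and 5.08 FPKM in wild-type testes. CG40930, in exon 3, had 2.40 and 1.07 FPKM, against 3.46 and 3.56 FPKM in wild-type testes (log2 fold change -0.76, SE 0.34, limma adjusted p = 0.192). In exons 1 and 3 the groups did not overlap but missed the threshold. The level in exon 2 was 0.288 and 0.510 times that in exon 1 in the mutant-labelled libraries, against 1.17 and 0.842 times in wild-type testes, a difference between exons that was not tested. Merged by length, PRY was at -0.76 (SE 0.21, limma adjusted p = 0.0793). With the reference length trend removed, a step that used the length of PRY, CG42619 was at -1.18 (limma adjusted p = 0.0507). With lengths estimated from the files instead it was at -1.69 (limma adjusted p = 0.0313).

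**Figure D5:**
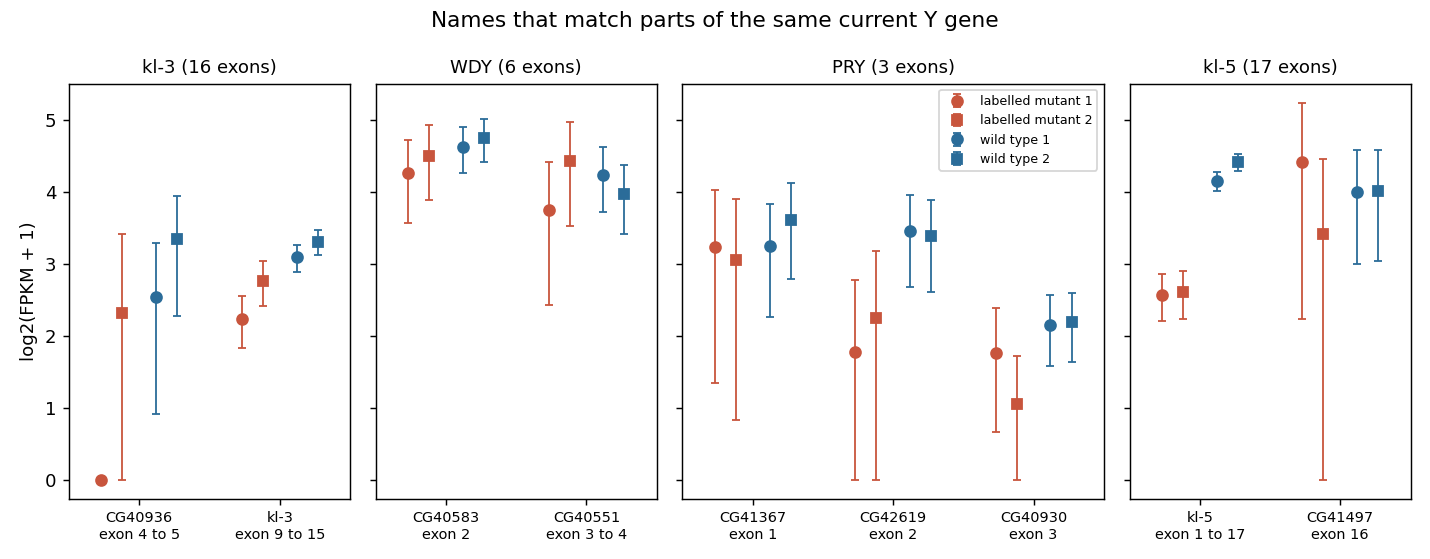
Level as log2(FPKM + 1) of names that match parts of 1 current Y gene, in the order of transcription, with the 95% interval of the files (bars). In PRY the mutant-labelled libraries are close to the wild type in exon 1 and lower in exon 2, and in kl-5 the bars of the main name are separate while those of CG41497 overlap.

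ARY, Ppr-Y and FDY did not pass. ARY (702430 to 704048, plus strand), an aldehyde reductase gene, had the highest mean level of the Y names other than CG42620 in both genotypes. It had 49.3 and 59.8 FPKM in the mutant-labelled libraries, against 55.1 and 52.3 FPKM in wild-type testes (log2 fold change 0.016, SE 0.13, limma adjusted p = 0.943). Ppr-Y (1636574 to 1884846, plus strand) had 11.2 and 9.26 FPKM, against 6.94 and 10.01 FPKM in wild-type testes (log2 fold change 0.26, SE 0.23, limma adjusted p = 0.466). fdy (now FDY, 3022289 to 3024024, plus strand), a Y copy of the chromosome 3R gene vig2, had 8.39 and 8.51 FPKM, against 11.4 and 10.6 FPKM in wild-type testes. Its groups did not overlap and the difference missed the threshold (log2 fold change -0.34, SE 0.14, limma adjusted p = 0.160). vig2 itself had 50.2 and 44.5 FPKM in the mutant-labelled libraries, against 46.2 and 45.9 FPKM in wild-type testes (log2 fold change 0.037, limma adjusted p = 0.823), and the split of shared fragments between both genes is uncertain. Ppr-Y has the longest intron of the set and a transcript of 1710 bases, and a link of intron length to the differences was not tested.

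Counted by current gene, 12 Y genes were tested, and kl-5 (-1.61, SE 0.16, limma adjusted p = 0.0119 with CG41497 merged in) and kl-2 fell and Pp1-Y1 rose. These calls stand beside 20.1% called among all genes tested without merging, 8.67% lower and 11.4% higher. Merged kl-3 was at -0.71 (SE 0.26, limma adjusted p = 0.136) and merged WDY at -0.21 (SE 0.17, limma adjusted p = 0.430). The names CG40948 and CG42619, which fell on their own, belong to the merged genes CCY and PRY that did not pass.

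The multicopy names lay at the limit of this depth. Of 26 Su(Ste) names on Y, 10 were above 0 in some library and 16 were listed at 0 in all. All 10 together had 5.0 and 3.0 estimated fragments in the mutant-labelled libraries, against 20.5 and 21.0 in wild-type testes, or 3.5 and 2.0 of every 1000000 fragments against 6.4 and 6.2. Su(Ste):CR42425 had the highest level of them in both wild-type libraries, with 0.471 and 0 FPKM in the mutant-labelled libraries, against 1.5 and 1.6 FPKM in wild-type testes. Su(Ste):CR42407 was the only Su(Ste) name above 0 in all 4 libraries, with 1.05 and 1.59 FPKM against 0.231 and 0.657 FPKM. No multicopy name reached the filter. Of the 11 Stellate names on X, Ste:CG33246 alone was above 0, at 0 in both mutant-labelled libraries and at 0.576 and 1.62 FPKM in wild-type testes. CG43176, a name of the Mst77Y repeats, was listed at 0 in all 4 libraries, while their source gene Mst77F on chromosome 3L rose, with 2291 and 2317 FPKM in the mutant-labelled libraries, against 1754 and 1721 FPKM in wild-type testes (log2 fold change 0.41, SE 0.04, limma adjusted p = 0.0107). That call was lost under quantile normalization (0.047, limma adjusted p = 0.414), with the reference length trend removed (0.18, limma adjusted p = 0.131) or the estimated one (0.26, limma adjusted p = 0.0749), and with no variance trend (limma adjusted p = 0.0839). CG41423, a pseudogene, was at 0 in both mutant-labelled libraries and at 1.09 and 1.03 FPKM in wild-type testes, on 3.0 fragments each. CG40801 was above 0 in mutant replicate 2 alone, on 1.0 fragment. In the near-identical Su(Ste) copies a listed 0 can also arise where a fragment has no single place, and it is not read as absence.

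Genes reported to bind or process the transcripts of the Y loops were read as a list. Of 6 tested, bol fell and none rose, beside 8.67% called lower among all genes tested. bol, which encodes a translation regulator of meiosis, had 574 and 562 FPKM in the mutant-labelled libraries, against 697 and 713 FPKM in wild-type testes (log2 fold change -0.31, SE 0.05, limma adjusted p = 0.0237). It turned to 0.12 with the reference length trend removed (limma adjusted p = 0.195). The median log2 fold change of the list was -0.21, beside -0.0075 over all genes tested.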

How the data were processed

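The reads were processed with TopHat, Cufflinks and build dm6, per the submitters' processing notes. Their versions and settings, the annotation and any strand setting were not given in the sources used here. Values are FPKM per gene with a 95% interval, made by the authors, per the file headers. Repeated names were summed. Fragments were estimated from the upper bound of the interval, as (2 FPKM / (bound - FPKM)) squared, which takes counting error alone; for rows with 1 start identifier and under 15 fragments, 54.4% to 63.1% of estimates lay within 0.05 of a whole number. They cover counting error only, and no count model was run.

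Names were matched by symbol or synonym to Ensembl release 115 and NCBI RefSeq (dm6 coordinates); all 31 Y names matched. The test was limma 3.58.1 in R 4.3.3 (lmFit, eBayes with trend) on log2(FPKM + 1), over genes averaging 1 FPKM or more, p-values adjusted by Benjamini-Hochberg, threshold 0.05. This scale understates changes of low genes. The fit was tested on simulated data. Length trends were removed by lowess (span 0.5) on log2 length, where a name takes the length of its current gene. The members, lists and tests were chosen with earlier results of these data known. Named genes were all Y names past the filter, list genes that were called, and the closest relatives of Y genes; the Su(Ste), Ste and pseudogene names given with values were chosen after their values were seen. Alternatives changed the pseudocount, filter, scaling, length correction, variance model, replicate block and row merging, and left out each library in turn. The series calls the replicates biological without saying how the flies were kept apart, so p-values measure only the spread between these samples.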

Additional observations from a re-analysis of the deposited data

How the results depend on the processing

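Of 18 Y names, 5 were called as deposited (1 higher, 4 lower), and the count was 5 with a pseudocount of 0.25 or 5, quantile normalization, equal medians, the highest row per name or no variance trend. With genes above 0 in all 4 libraries 0 were higher and 4 lower, since Pp1-Y1 is then left out. With the reference length trend removed 3 were called (2 lower), and with names of 1 current gene merged 3 (2 lower). Leaving out a library gave 0 Y names throughout, with 4 to 10 Y names at an unadjusted limma p under 0.05, and 0 to 262 of all genes, with 2374 to 3989 at an unadjusted p under 0.05; the Y median then ran from -0.42 to -0.31. The main fit did not treat replicate numbers as pairs. Deviations of same-numbered libraries correlated at -0.05, which cannot show whether such libraries were prepared together. The replicate block called 5 Y names and 1671 of all genes, against 2164 without it. All genes called were 1323 with the reference length trend removed, 1328 with the estimated length trend removed and 1103 with no variance trend. The Y median of -0.32, identical to that of the fertility factors and single-copy genes, became -0.25 with a pseudocount of 5, -0.25 under quantile normalization, -0.27 with equal medians, -0.12 with the reference and -0.46 with the estimated length trend removed, and -0.28 with names merged. Without the filter 7 of 31 Y names were called, 6 lower, among them CG41423 and Su(Ste):CR42430. They stand beside 1897 called of all 13404 genes tested, 859 of them lower. CG41423 and Su(Ste):CR42430 are members through the deeper wild-type libraries alone, on 3.0 to 5.0 fragments per library. No other Y gene passed the filter, so their median has no value with it.

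Quantile normalization gave 849 higher and 982 lower genes, and equal medians 1446 and 781, against 1229 and 935 as deposited. Y names that turned direction were not called in any of these fits. CG40551 turned to 0.029 (quantile normalization), 0.031 (equal medians) and 0.17 (reference length), and ran from -0.36 to 0.32 when a library was left out. ARY turned to -0.026 (quantile normalization) and to -0.13 and -0.16 (reference and estimated length), and ran from -0.12 to 0.15. CG41497 turned to 0.60 (reference length) and ran from -0.58 to 0.41. CG42620 ran from -6.63 to 1.61 and Ory from -0.52 to 0.066, both turning without mutant replicate 1. Off the Y, bol turned to 0.12 (reference length), Dhc62B to 0.041 and 0.036 (reference and estimated length) and vig2 to -0.041 (reference length), and vig2 was at -0.047 without mutant replicate 1. The cause was not tested. The lengths estimated from the files and the merging of names were chosen after seeing the data. Depth limits the names under 10 fragments.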
